A study of Mus musculus with 6 samples.

Results

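Genes of neurons, glial cells and the chromaffin cells of the adrenal medulla were examined in whole mouse kidneys at E14.5, a stage of embryonic development, in wild-type kidneys and in kidneys mutant for the signalling gene Wnt4. The 35 genes are known to mark nerve or adrenal medulla, and for each the probe set brightest on average (mean log2 signal of the 6 arrays) was used. Of these, 33 were measured here, among 8251 genes on the array with 1 gene symbol, and Dbh and Syn1 were not analysed here. The genes were chosen by name, with the mutant against wild-type differences of these same arrays known. Cadps and Astn1 are in it after they had been seen among its largest rises, so their differences are given as a description, without a p-value. The other members' p-values come from the fit over all probe sets and are a description too.

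The metanephros, the embryonic kidney, was excised whole and measured on 6 Affymetrix MG_U74Av2 arrays, which read many short probes per transcript as a probe set signal. The 4 wild-type samples are labelled strain CD-1 and pooled 2 kidneys each. The 2 mutant samples are labelled strain 129, carry the Wnt4tm1Amc allele and pooled 8 to 10 kidneys from 4 to 5 embryos each. The strain label of the mutants conflicts with the protocol text, which describes mating CD-1 mice for all 6 samples. Genotype, pool size and strain label cannot be told apart, and p-values measure the spread between these pools. RNA of all 6 went through 1 round of amplification. Per the design text, Wnt4 is needed to induce the renal vesicle, the first precursor of the nephron.

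The kidney carries sympathetic and sensory nerve fibres, which grow in along its vessels with Schwann cells, the glia of peripheral nerves. The cell bodies of these neurons lie outside the organ, in ganglia near the aorta and spinal cord. The adrenal gland sits against the upper pole of the kidney. Its medulla holds chromaffin cells, which come from the neural crest like sympathetic neurons, and which make and store catecholamines. Some of the genes are also known outside the nervous system: Ncam1 in the nephrogenic mesenchyme, L1cam in the ureteric bud and Ddc in the proximal tubule.

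The upstream sequences of 6 members are shown first. Of these, 3 are chromaffin genes that are described further on, and 3 are the genes past the threshold (Dcx, Astn1 and Cadps). Astn1 and Cadps had been seen as rises beforehand and are not counted as support. They are the 250 bases before the annotated start, from the RefSeq promoter table of build GRCm38.p6, in which 23 of the 35 members had an entry. Capitals mark the letters TGACG, the core of the cAMP response element that is well known from catecholamine genes, and CAGCTG, an E-box read by proneural basic helix-loop-helix factors, on either strand.
Dcx, chrX:143933220-143933469, minus strand, the first of its 2 listed starts: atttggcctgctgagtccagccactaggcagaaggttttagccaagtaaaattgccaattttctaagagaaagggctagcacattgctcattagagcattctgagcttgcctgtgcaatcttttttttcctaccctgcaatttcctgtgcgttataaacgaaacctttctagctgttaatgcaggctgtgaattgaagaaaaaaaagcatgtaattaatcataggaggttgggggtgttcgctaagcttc
Astn1, chr1:158362054-158362303, plus strand: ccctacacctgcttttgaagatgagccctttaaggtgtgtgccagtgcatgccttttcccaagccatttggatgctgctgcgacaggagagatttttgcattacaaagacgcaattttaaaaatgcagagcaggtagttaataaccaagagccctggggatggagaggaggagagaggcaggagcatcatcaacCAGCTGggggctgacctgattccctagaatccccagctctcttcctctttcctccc
Cadps, chr14:12823080-12823329, minus strand: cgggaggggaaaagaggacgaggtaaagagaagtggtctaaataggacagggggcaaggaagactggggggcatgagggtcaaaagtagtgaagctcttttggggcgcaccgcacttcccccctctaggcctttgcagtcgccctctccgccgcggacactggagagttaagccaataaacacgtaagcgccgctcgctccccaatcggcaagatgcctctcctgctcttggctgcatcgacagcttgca
Th, chr7:142899996-142900245, minus strand: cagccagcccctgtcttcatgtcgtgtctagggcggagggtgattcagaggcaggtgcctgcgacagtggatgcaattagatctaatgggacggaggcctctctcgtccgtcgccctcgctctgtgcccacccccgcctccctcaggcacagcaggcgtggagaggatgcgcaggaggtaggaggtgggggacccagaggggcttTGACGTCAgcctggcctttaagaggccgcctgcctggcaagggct
Chga, chr12:102554691-102554940, plus strand: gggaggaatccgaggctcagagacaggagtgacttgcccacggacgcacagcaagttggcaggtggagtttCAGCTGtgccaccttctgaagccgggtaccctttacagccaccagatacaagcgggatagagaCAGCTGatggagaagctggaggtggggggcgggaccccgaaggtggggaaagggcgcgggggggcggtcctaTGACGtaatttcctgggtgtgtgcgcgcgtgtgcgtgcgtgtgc
Chgb, chr2:132781392-132781641, plus strand: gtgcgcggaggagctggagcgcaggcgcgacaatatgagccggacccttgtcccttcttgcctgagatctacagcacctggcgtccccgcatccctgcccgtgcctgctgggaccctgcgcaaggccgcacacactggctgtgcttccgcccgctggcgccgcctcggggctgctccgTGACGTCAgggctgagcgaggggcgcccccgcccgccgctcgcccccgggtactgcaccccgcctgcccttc
The full element TGACGTCA, which contains the shorter TGACG on both strands, lay 45 to 38 bases before the start of Th and 72 to 65 bases before that of Chgb. Chga held the shorter form 44 to 40 bases before its start, and 2 E-boxes. Over all 32851 windows of this length in the table, 1.55% held TGACGTCA, 17.8% TGACG and 13.0% CAGCTG. Among the 23 members with an entry the numbers were 3, 8 and 5. Astn1 had 1 E-box, 56 to 51 bases before its start, and neither Dcx nor Cadps held any of these letters in the window. These are matches of letters and were not tested as binding sites.

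The arrays had been scaled to a common level, with a median signal of 173 to 191. Wild-type replicates 2 and 4 fitted the group means least, with array weights of 0.749 and 0.484 against 1.18 to 1.37 for the other 4 arrays. Wnt4 itself read 829, 739, 946 and 699 in the wild type and 74.2 and 34.5 in the mutant. The kidney markers Six2, Foxd1, Wt1, Gata3 and Pax2 had lowest percentiles of signal over the arrays of 94.4, 86.5, 78.0, 71.5 and 35.1. The Ret probe set was dim, at 86.25, 30.5, 104 and 71.3 in the wild type and 8.08 and 8.61 in the mutant (-1.79, no test). Foxd1, which marks the kidney stroma, rose from 1199 to 1528 in the wild type to 4692 and 4749 in the mutant (1.75, limma, adjusted p = 4.93e-05), and Pax2 had -1.05 (limma, adjusted p = 0.0961). The part of the stroma in the results on the members was not tested. The spiked-in bacterial control BioB (middle probe set) read 1645 to 1903 on the wild-type arrays and 930 and 950.1 on the mutant arrays, -0.86 on the log2(signal + 16) scale. Its part in the signals of dim genes was not tested.

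Most members gave dim signals in both genotypes. Of the 33 measured, 16 did not exceed the 40th percentile of signals (101.1 to 110.4) on any array, and 10 exceeded it on all 6. Probe sets differ in how strongly they bind their target, so a rank on the array does not order the transcripts by amount. Among the dim ones were genes that neurons express strongly. Snap25, the membrane partner in synaptic vesicle fusion, read 3.52 to 6.41 over all 6 arrays, at or below percentile 4.55. Map2, a microtubule protein of dendrites, stayed at or below percentile 10.7, the peripheral neuron filament gene Prph at or below percentile 19.6, and the sympathoadrenal transcription factor Phox2a at or below percentile 20.8. Tubb3 and Ncam1 stood at the other end, at percentile 94.1 or above on every array.

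**Figure D1:**
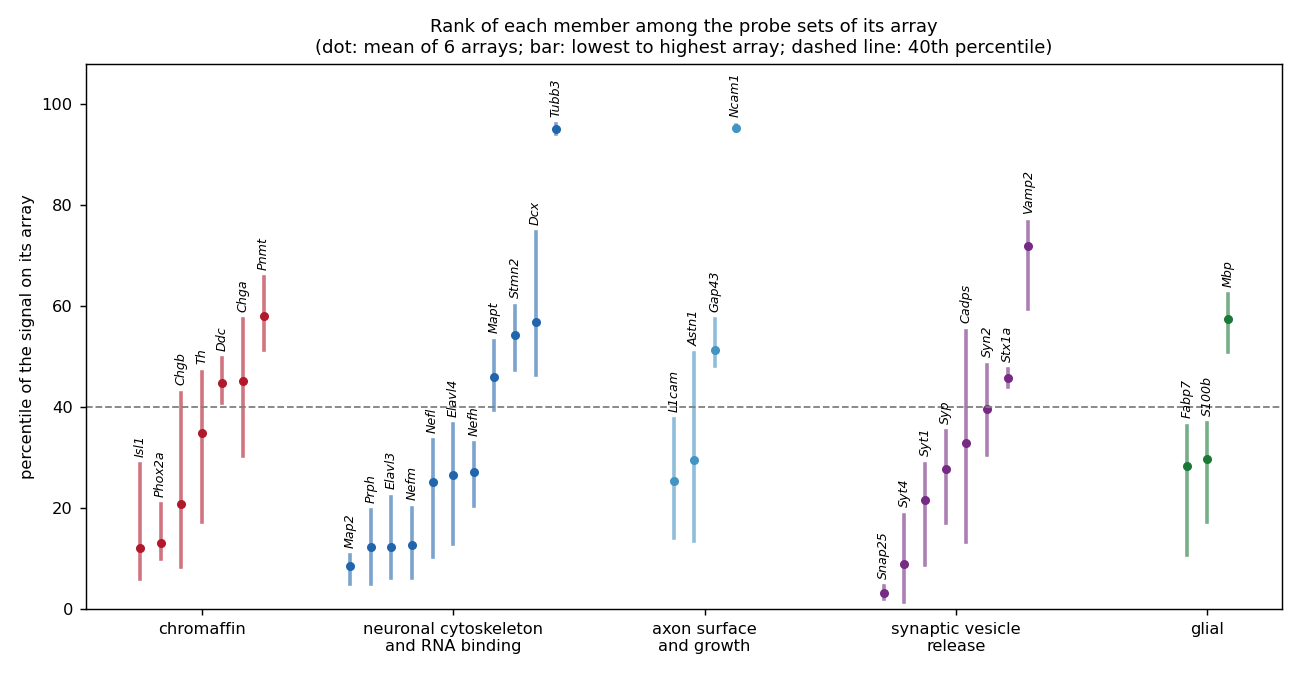
Percentile of each measured member's signal among all probe sets of its array (y axis), by role (x axis); dots are means over 6 arrays and bars run from the lowest to the highest array. 16 members stay under the dashed line at the 40th percentile on every array, and Tubb3 and Ncam1 lie above 94.

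Most measured members either had no test or did not pass it. Values were compared as log2(signal + 16) with limma, with Benjamini-Hochberg adjustment over the 7981 probe sets that exceeded the 40th percentile on at least 2 arrays, at a threshold of 0.05. That filter kept 16 of the 33 members, and 17 have values but no test. Of the 16 tested, 3 passed, all higher in the mutant (Dcx, Astn1 and Cadps), and 0 were lower. Over all probe sets tested, 4.65% were called higher and 6.11% lower. Astn1 and Cadps exceeded the filter level on no wild-type array and entered the test through the mutant arrays alone. Without these 2, 1 of 14 tested members passed. At an unadjusted p under 0.05 limma had 0 members lower, and Pnmt, Chga, Stmn2 and Gap43 higher besides the 3 called. As the members were chosen with this contrast known, this is a description. None was called lower in any of the other 16 settings tried.

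Dcx showed the clearest difference. It encodes doublecortin, a microtubule-binding protein of migrating and newly formed neurons. The 4 wild-type arrays read 216, 176, 153 and 144, and the mutant arrays 525 and 634. Both mutant arrays stood more than 2-fold above the highest wild-type array. The means were 172 ± 32.3 (SD, n = 4) and 579.5 ± 77.3 (SD, n = 2), which differ by 1.67 ± 0.20 (SE) in log2 (adjusted p = 0.00109 with limma). Dcx passed in all 17 settings, with differences of 1.45 to 1.80 and adjusted p of 3.77e-04 to 0.0283.

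Cadps and Astn1 were below the filter level on every wild-type array and above it on both mutant arrays. Cadps encodes CAPS, a protein that primes dense-core vesicles, the hormone and catecholamine stores of neurons and chromaffin cells, for release. It read 47.6, 15.6, 16.6 and 91.3 in the wild type and 196 and 239.9 in the mutant, a log2 difference of 2.18 ± 0.58 (SE). A dimmer second probe set of Cadps, below the filter, read 34.1, 2.73, 14.3 and 21.7 against 65.5 and 59.6. Both probe sets had the 2 mutant arrays above all wild-type arrays, as did 17.1% of the 8251 genes. Astn1 encodes astrotactin, a membrane protein by which young neurons hold on to glial fibres. Its signals were 17.7, 44.5, 21.9 and 42.8 in the wild type and 134 and 189 in the mutant, a difference of 1.92 ± 0.51 (SE). Of the 371 probe sets called higher, 8 had a difference at least that of Cadps, 16 that of Astn1 and 33 that of Dcx. Both calls were lost without wild-type replicate 1 (2.28 and 1.77) and without wild-type replicate 3 (1.96 and 1.83), and that of Cadps also without wild-type replicate 2 (1.94). Without either mutant array they no longer reached the filter and were not tested. Both calls were also lost with an offset of 1 and with a replicate block. That of Cadps was lost without a filter and without a variance trend, and that of Astn1 with quantile normalization. Of the 13 settings in which each was tested, the main one included, Cadps passed in 6 and Astn1 in 8. Both were listed after their rises on these same arrays had been seen. Their ranks and these counts are thus a description and not counted as support.

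The chromaffin genes did not move together. None of the 4 tested passed, and 7 measured members had a median difference of 0.46, with 4 above 0 and 3 below. Pnmt, the enzyme that turns noradrenaline into adrenaline, read 258, 245, 198 and 239 in the wild type and 336 and 408 in the mutant. Both mutant arrays lay above the wild type, and the difference of 0.63 (95% interval 0.23 to 1.03; limma, adjusted p = 0.0533) was just outside the threshold. A second Pnmt probe set gave 66.7, 64.1, 291 and 227 against 289.6 and 284, which overlap. Chga, the chromogranin of dense-core granules, read 62.3, 117, 107 and 174 in the wild type and 189 and 268 in the mutant. Its groups did not overlap either, and the difference was 0.95 (95% interval 0.13 to 1.77; limma, adjusted p = 0.133). A second Chga probe set, very dim and below the filter, gave 8.55, 6.55, 13.9 and 7 against 15.5 and 9.28, which overlap (0.18). With array weights, which count wild-type replicate 4 least, Pnmt and Chga passed (0.65 and 1.08; adjusted p = 0.0278 and 0.0453, within ranges of 0.0278 to 0.357 and 0.0453 to 0.530 over the alternatives).

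Other chromaffin genes split the mutant arrays. Th, the rate-limiting enzyme of catecholamine synthesis, read 100.4, 49.7, 69.4 and 148 in the wild type, 148 in mutant replicate 1 and 22.7 in mutant replicate 2. Mutant replicate 2 was the lowest of all arrays and mutant replicate 1 read level with the highest wild-type array. The difference was -0.35 (95% interval -1.77 to 1.07; limma, adjusted p = 0.770). Chgb, the second chromogranin, read 44.3, 21.1, 12.3 and 28.1 in the wild type and 129 and 9.79 in the mutant, with 1 mutant array above and the other below all wild-type arrays (0.58, and -0.66 without mutant replicate 1). A second Chgb probe set, below the filter, was higher on both (35.5 and 39.6 against 0.93 to 15.6). Phox2a read 10.9 to 17.1 in the wild type and 34.9 and 15.1 in the mutant. Isl1, a transcription factor of sympathetic and sensory neurons, was dim throughout (10.2 to 56.1, and 9.11 and 7.47). Ddc, the decarboxylase that makes dopamine, gave 109.6 to 177 in the wild type and 137 and 114 in the mutant (-0.18, limma, adjusted p = 0.741). The median over the chromaffin genes was 0.69 without mutant replicate 2 and -0.29 without mutant replicate 1.

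**Figure D2:**
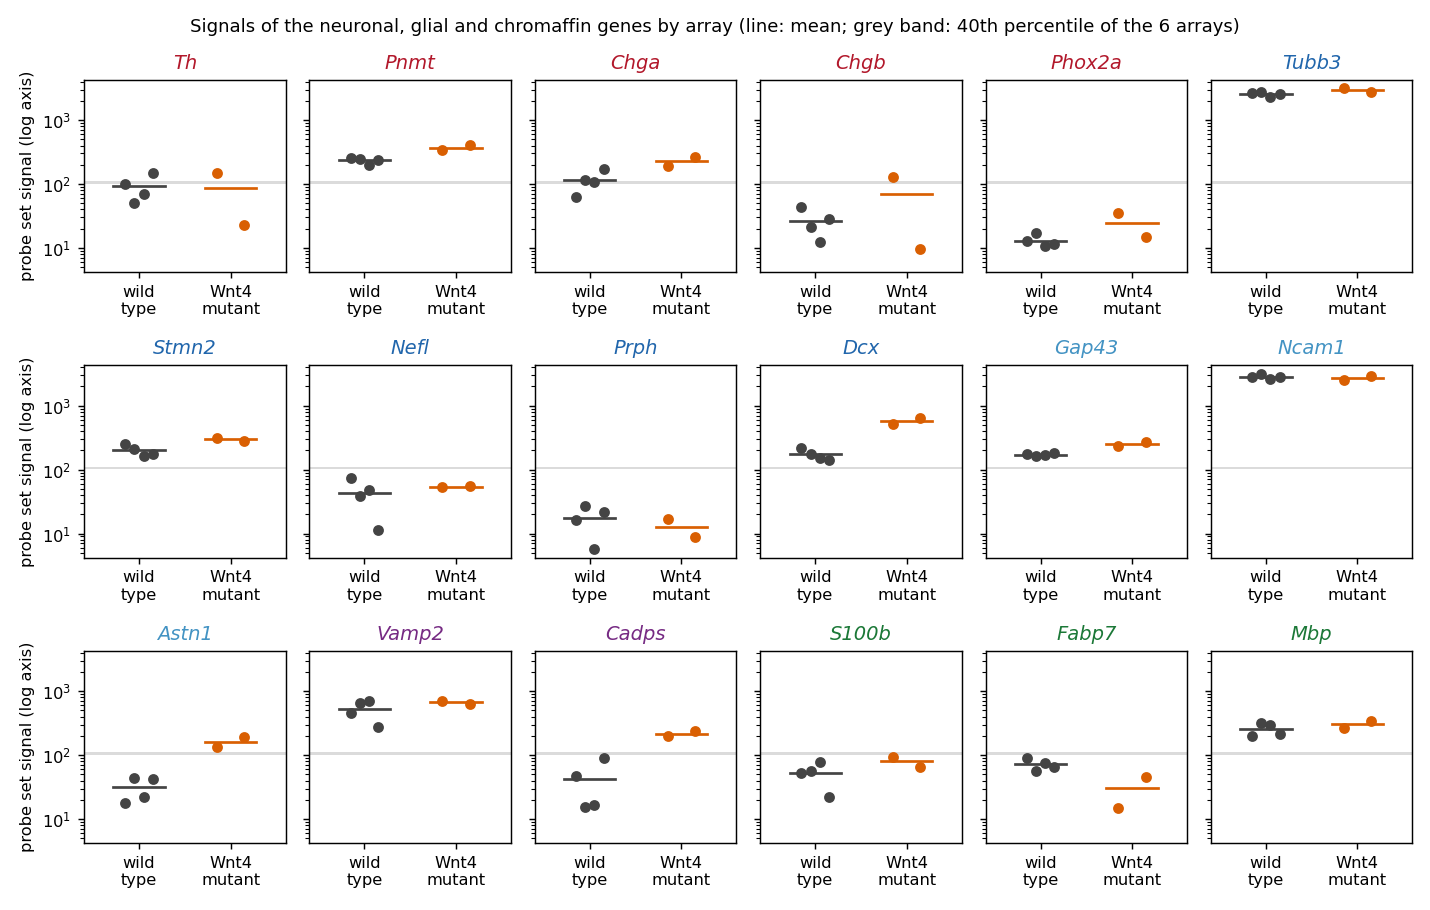
Probe set signal (y axis, log scale) of 18 members on the 4 wild-type and 2 mutant arrays, in replicate order from left to right; each point is an array, lines are means, and the grey band is the range of the 40th percentile over arrays. Dcx, Astn1 and Cadps have both mutant arrays above the wild type, for Chgb they lie on either side of it, and for Th 1 lies below it and the other level with its highest array.

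Genes of the neuronal cytoskeleton and of neuronal RNA binding gave small or dim differences apart from Dcx. Of 11 measured, 4 were tested, 1 passed, and the median difference was 0.19. Tubb3, the neuronal beta-tubulin, was bright and nearly level, at 2684, 2698, 2325 and 2543 in the wild type and 3116 and 2718 in the mutant. Mutant replicate 2 exceeded the highest wild-type array only slightly, and the difference of 0.19 (95% interval -0.04 to 0.41) did not pass (limma, adjusted p = 0.283). Its probe set carries the Affymetrix suffix for probes shared within a gene family, so that other tubulins may add to it, and its second probe set gave -0.17. The probe sets of Cadps, Chgb and Prph carry the same suffix. Stmn2, a microtubule regulator of growing axons, read 249, 211, 161 and 175 against 308 and 284, without overlap (0.55, 95% interval 0.07 to 1.03; limma, adjusted p = 0.134). Both further Stmn2 probe sets overlapped between the groups and went the other way (-0.30 and -0.10). Mapt, the axonal protein tau, had -0.35 (limma, adjusted p = 0.483).

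The neurofilaments and Hu proteins were below the filter and have no test. Nefl, the light neurofilament, read 74.6, 38.6, 48.0 and 11.3 in the wild type and 52.9 and 54.9 in the mutant, inside the wild-type range. Nefm, the medium neurofilament, had 30.0 and 28.7 in the mutant against 7.39 to 14.9, and Nefh, the heavy neurofilament, 74.2 and 33.9 against 31.2 to 58.1. Prph overlapped too, at 16.4, 27.1, 5.71 and 21.4 in the wild type and 16.8 and 8.71 in the mutant. Elavl3 and Elavl4, which bind RNA in neurons, had 0.28 and -0.20. Neurofilament signals at this level allow no statement on nerve fibres in either genotype.

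Among the axon surface genes, Gap43 and Ncam1 exceeded the filter level on all 6 arrays, Gap43 at percentiles 48.1 to 57.4 and Ncam1 at percentile 94.6 or above. Gap43, a growth cone protein, was tight in the wild type (175, 163, 169 and 179) and higher on both mutant arrays (234 and 267), with 0.51 (95% interval 0.09 to 0.93; limma, adjusted p = 0.120). It passed in 1 of 16 settings, that without a variance trend (adjusted p = 0.0430; range 0.0430 to 0.482). Ncam1, an adhesion molecule of neurons and of the nephrogenic mesenchyme, read 2846, 3106, 2609 and 2756 against 2515 and 2881, a difference of -0.07 (95% interval -0.30 to 0.16; limma, adjusted p = 0.721). L1cam, an adhesion molecule of axons and of the ureteric bud, went the other way, with 96.2, 39.9, 42.5 and 82.7 in the wild type and 20.6 and 17.3 in the mutant. At -1.15 it had the lowest difference of all members, for which it was singled out after its values were seen, but it was below the filter on all 6 arrays and has no test.

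Synaptic vesicle genes other than Cadps did not pass. All 8 measured had differences above 0, from 0.01 for Snap25 to 2.18 for Cadps, with a median of 0.35; this was 0.62 without mutant replicate 2 and 0.12 without wild-type replicate 4. Vamp2, the vesicle partner in fusion, was the brightest, at 452, 663, 705 and 279.7 in the wild type and 690.4 and 641 in the mutant, inside the wild-type range (0.42, limma, adjusted p = 0.464). Stx1a, its partner in the target membrane, had 0.04 (95% interval -0.48 to 0.56), and Syn2, which tethers vesicles, 0.29 (-0.75 to 1.32). The calcium sensor Syt1 was below the filter, with 55.5 and 53.4 in the mutant above 10.4 to 37.5 in the wild type. Syt4 had 0.79, and the vesicle membrane protein Syp 0.14.

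Glial genes were few and showed no shared direction. Mbp, the myelin basic protein, read 196, 313, 297 and 213 in the wild type and 264 and 345 in the mutant (0.26, limma, adjusted p = 0.534). A second, dimmer Mbp probe set gave 12.7, 87.3, 64.2 and 82.9 against 128 and 107, without overlap, but did not pass (0.93, limma, adjusted p = 0.358). Mbp also has transcripts in cells that make no myelin. S100b, a calcium-binding protein of Schwann cells and astrocytes, had 52.1, 57.4, 77.8 and 21.9 against 93.6 and 65.6 (0.54). Fabp7, a lipid-binding protein of immature glia, had 88.9, 56.4, 76.4 and 66.3 against 15 and 45.7, without overlap (-0.995; -0.50 without mutant replicate 1 and -1.49 without mutant replicate 2). Both were below the filter and have no test.

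**Figure D3:**
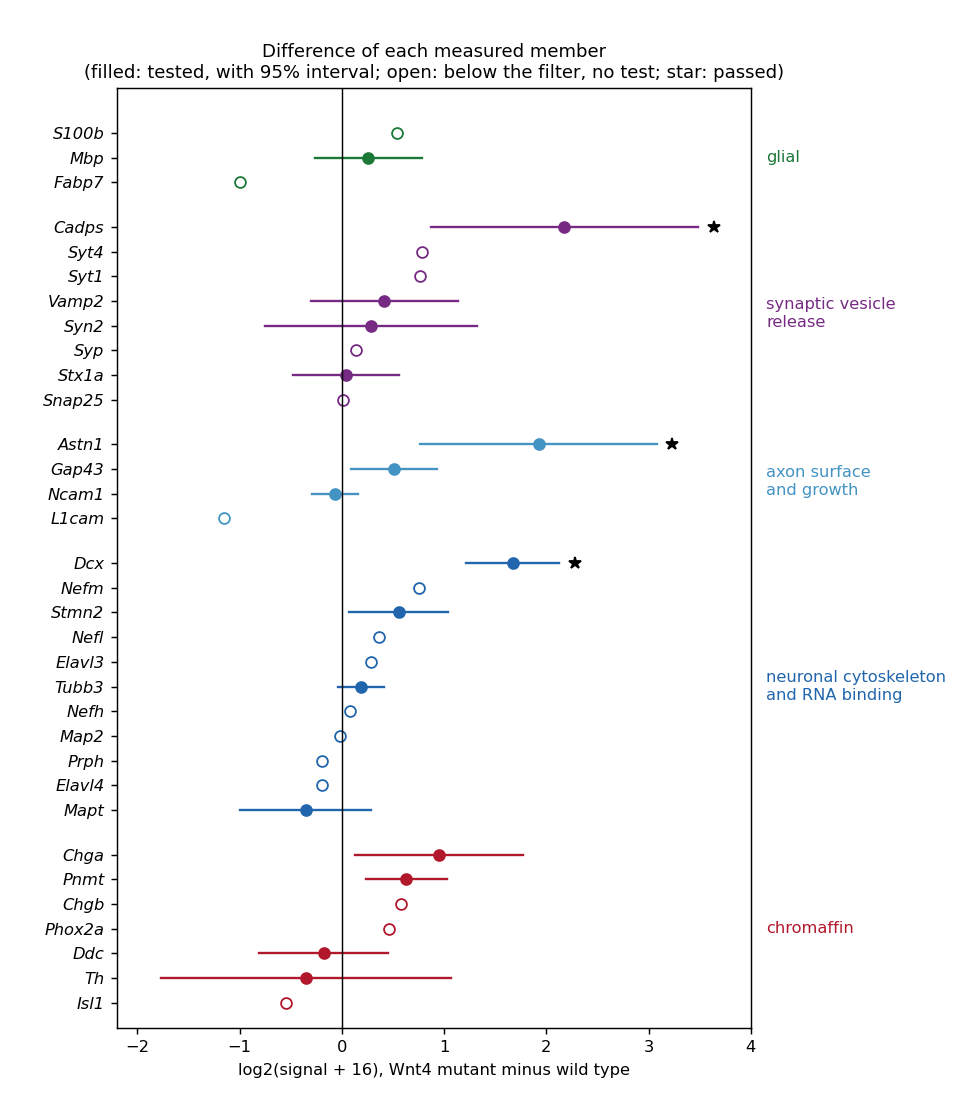
Difference in log2(signal + 16), mutant minus wild type (x axis), of the 33 measured members by role (y axis); filled points were tested and carry a 95% interval, open points were below the filter, and stars passed. Dcx at 1.67, Astn1 at 1.92 and Cadps at 2.18 carry stars, and the lowest point is L1cam at -1.15. Astn1 and Cadps entered the test through the mutant arrays alone, so their stars are a description.

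Taken over all 33 measured members without a filter, 23 differences were above 0 and 10 below, with a median of 0.28. Over all probe sets on the array, 53.7% were above 0 and the median was 0.03. The members' median was 0.42 without mutant replicate 2 and 0.15 without wild-type replicate 4. Both mutant arrays lay above all wild-type arrays for 10 of the 33 members, which is 8 of 31 without Cadps and Astn1, and below them for 3, where 17.1% and 16.1% of the 8251 genes did so. As the members were chosen with this contrast known, nothing is read from these shares. Of the members' 14 further probe sets, 9 had the sign of the chosen one, 5 were tested and 0 passed with limma.

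Within the wild type, members varied without a common rank of the arrays. Replicate 1 was the highest wild-type array for 13 of the 33 members and replicate 2 for 10, while replicate 3 was the lowest for 12 and replicate 2 for 10. The median coefficient of variation between wild-type arrays was 22.5% for the 16 tested members (4.09% to 83.2%) and 43.9% for the 17 below the filter. Of the 7 chromaffin genes, 5 exceeded the filter level on mutant replicate 1, 3 on mutant replicate 2 and 2 to 4 on the wild-type arrays. A bulk signal cannot tell fewer cells of a type from less RNA per cell.

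Other genes of the same cell types were counted from lists that hold no member. In the neuronal list, 1 of 13 tested genes passed, and 22 measured had a median of 0.30. That gene was Dpysl3, a growth cone protein of the collapsin response mediator family, at 120.5, 89.2, 63.0 and 80.9 against 189 and 242 (1.17, limma, adjusted p = 0.0466). Of the 22, 17 differences were above 0 and 5 below. Snap91 was lower on both mutant arrays (85.3 and 105 against 137 to 196) without passing (-0.75, limma, adjusted p = 0.0991). It entered the test through the wild-type arrays alone. Nrcam had -1.20, with overlap and no test. In the sympathoadrenal list, 2 of 7 tested passed and 15 measured had a median of -0.04. The 2 were Gata2, a transcription factor also active in the ureteric bud (0.94, limma, adjusted p = 0.00123), and Dlk1, a Notch-related imprinted gene that many embryonic mesenchymal cells express (1.15, limma, adjusted p = 0.00805). Of the 15, 7 differences were above 0 and 8 below. Npy was lower on both mutant arrays (118 and 202 against 219 to 403) without passing (-0.81, limma, adjusted p = 0.101). In the Schwann cell and glial list, 1 of 5 tested passed, lower in the mutant, and 11 measured had a median of 0.08. This was Mal, a myelin protein that kidney tubules also make, at 768, 626, 535 and 583 against 287 and 428 (-0.80, limma, adjusted p = 0.0319). Sox10, the transcription factor of Schwann cells, had 138, 209.7, 180.0 and 134 against 239.6 and 174, which overlap (0.30, limma, adjusted p = 0.511). Erbb3 and Gfra3 were higher on both mutant arrays without passing (0.42 and 0.70, limma, adjusted p = 0.0660 and 0.161). Of the 11, 6 differences were above 0 and 5 below.

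Markers of neighbouring tissues were read beside these results. In the adrenal cortex list, 0 of 5 tested genes passed with limma (2 at an unadjusted p under 0.05, Nr5a1 and Inha), and its summed signal was 3231 to 4146 in the wild type and 3596 to 3912 in the mutant. Cyp11a1, which starts steroid synthesis, was at or below percentile 26.2 on every array (10.3 to 27.7, and 50.3 and 16.5), and Star, the cholesterol carrier, at or below percentile 37.5. Cyp21a1, the steroid 21-hydroxylase of the cortex, read 499 to 618 in the wild type and 621 and 546 in the mutant (0.05, limma, adjusted p = 0.835). Inha, an inhibin subunit made in adrenal cortex and gonads, read 30.4, 27.1, 41.5 and 87.8 against 196 and 161, without overlap (1.72, limma, adjusted p = 0.0533). It exceeded the filter level on no wild-type array and was tested only because of the mutant arrays. The part of adrenal tissue in the members' values was not tested. Nr5a1, the steroidogenic transcription factor, had 941 to 1224 against 1371 and 1322 (0.31, limma, adjusted p = 0.128), and its 4 other probe sets ran from -0.77 to 0.98. Of the 10 measured genes of this list, 5 differences were above 0 and 5 below.

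Many skeletal muscle markers were higher in the mutant. Of 14 tested, 7 were higher in the mutant and 0 lower, with a median of 1.05 over 23 measured, and the list's summed signal was 2516 to 3268 in the wild type and 7371 to 7975 in the mutant. Among the 7 were the troponin Tnnc1 (2.76), the myosin light chain Myl1 (2.17), the actin Actc1 (2.05) and Myog, a muscle regulator (1.76). Tnnc1 exceeded the filter level on no wild-type array and entered the test through the mutant arrays alone. Of 4 tested cartilage genes 0 passed with limma (2 at an unadjusted p under 0.05, Col9a1 and Col9a2), with summed signals of 1110 to 1251 and 1342 to 1726. The part of muscle or other tissue beside the kidney in the values of Dcx, Astn1 and Cadps was not tested.

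**Figure D4:**
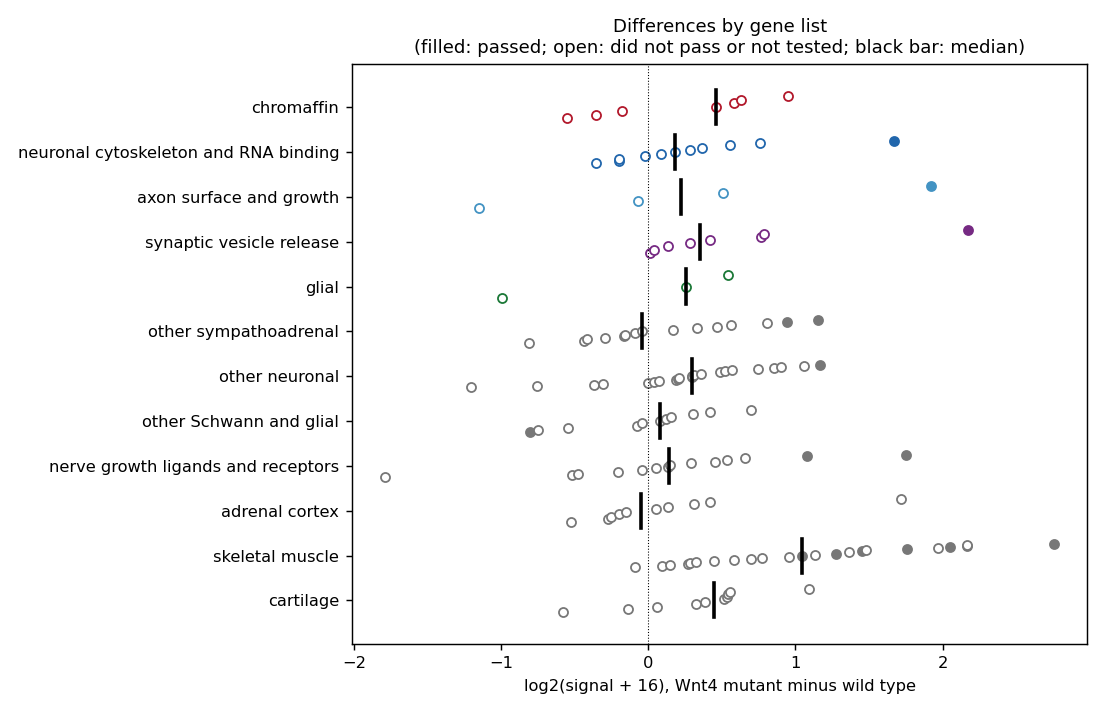
Difference in log2(signal + 16), mutant minus wild type (x axis), of each measured gene by list (y axis); the 5 coloured lists are the members, filled points passed and black bars are medians. Filled points lie to the right in every list that has any but the Schwann and glial one, where Mal is at -0.80, and muscle has the highest median, 1.05.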

How the data were processed

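RNA of 6 kidney pools was read on Affymetrix arrays. The deposited table holds the authors' probe set signals, an intensity on a linear scale. Per the submitters' processing notes GCOS, the Affymetrix software, was used. Its version and settings: not given in the sources used here. Detection calls were not used. Each column had a trimmed mean of 500.3, so the arrays had been scaled alike before deposit, and no further normalization was done. The number of arrays limits the precision. Gene names came from the platform annotation, updated by gene identifier to RefSeq (GRCm38.p6): of 12422 probe sets, 10833 had 1 symbol, 396 several and 1193 were unnamed here. Probe sets with several symbols named no gene. The 66 control probe sets were set aside.

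The members, lists and tests were chosen with earlier results of these data known. Named members were those past the threshold, 14 defining markers, and in each role the brightest and the most different gene. Signals plus 16 were put on the log2 scale, which understates changes of dim genes, and fitted with limma 3.58.1 (R 4.3.3; lmFit, eBayes with a variance trend), with Benjamini-Hochberg adjustment over 7981 probe sets. The fit was tested on simulated data: of 98 probe sets changed by 2 on the log2 scale 80.6% were called, and of 97 changed by 1, 60.8%. Alternatives varied the offset (1 or 64), the filter (none, or the 60th percentile), normalization, probe set rule, variance trend, array weights, replicate block and each array left out. A fit on wild-type replicates 1 and 3 alone was added after seeing the data.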

Additional observations from a re-analysis of the deposited data

Results flagged for a closer look

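In 1 of the 33 measured members, a wild-type array stood far from the other 3 on the log2 scale. Isl1 read 56.1 on wild-type replicate 1 and 10.2 to 14.3 on the others, with a gap of 0.856 of the group's range, above Dixon's 95% critical value for 4 samples. Chance flags about 1 in 20 groups of this size, so a flag among 33 is not unusual. Isl1 was below the filter on all 6 arrays and has no test.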

How the results depend on the processing

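Dcx kept its call in all 17 settings. The count of members called higher, 3, was 1 (Dcx) with an offset of 1, with a filter at the 60th percentile, with probe sets averaged per gene and with a replicate block, 5 with array weights (Pnmt and Chga added), and 1 to 3 with an array left out. Probe sets called higher and lower, 371 and 488, were 613 and 738 with array weights and ran from 114 to 448 and from 188 to 553 with an array left out, fewest without a mutant array. The count called lower was also reduced, to 320, without wild-type replicate 1. The median over the members ran from 0.15 to 0.42 with an array left out, that of the chromaffin genes from -0.29 to 0.69 and that of the synaptic genes from 0.12 to 0.62. With averaged probe sets the glial median was 0.54. The difference of Th turned positive without mutant replicate 2 (0.69). It ran from -0.56 to 0.69 over the 4 removals in which Th passed the filter, and without the filter from -1.39 to 0.69 over all 6. That of Ncam1 turned positive with averaged probe sets (0.052) and without mutant replicate 1 (0.029), and ran from -0.17 to 0.029 with an array left out. The medians use no filter. Beyond fewer arrays, the cause was not tested.

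Deviations of same-numbered wild-type and mutant arrays from their group means had correlations of 0.003 and -0.015. The deviations of 2 mutant arrays mirror each other, so this cannot decide whether the numbers do more than name samples. The replicate block changed no call of a member other than those of Cadps and Astn1. Signals of 17 members were too dim for a test.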

Other observations

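Genes that guide or feed growing nerves were listed apart from the neural genes. Of 10 tested ligands and receptors, 2 were higher in the mutant and 0 lower, and 14 measured had a median of 0.14. Ntn1, the axon guidance cue netrin, read 858, 734, 621 and 731 in the wild type and 2516 and 2473 in the mutant (1.75, limma, adjusted p = 9.77e-05). Gfra2, a receptor for the neurotrophic factor neurturin, read 146, 95.9, 208 and 141 against 323 and 316 (1.08, limma, adjusted p = 0.0400). Its ligand Nrtn went the other way without passing (-0.52, limma, adjusted p = 0.0782), and Gdnf had 0.14 (limma, adjusted p = 0.565). The receptor gene Ret had the lowest difference of the list (-1.79), with a dim signal and no test. Of the 14, 9 differences were above 0 and 5 below.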
